A study of Mus musculus with 24 samples.

Results

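The inflammatory cytokines described here are the IL-1 family genes Il1a, Il1b, Il1rn, Il18 and Il33, the tumour necrosis factor gene Tnf, the IL-6 family genes Il6, Osm and Lif, and the macrophage growth factor gene Csf1. These 10 genes were picked by symbol, with earlier results of these data known, from the 55471 genes in each deposited table. The RNA, polyA-selected before sequencing, was taken from skin and from bone of female mice aged 10 weeks, in a series on a mouse sarcoma model. In each tissue there were 4 libraries labelled F-PRT, 4 labelled S-PRT and 4 labelled Untreated, which makes 24 libraries in 6 groups. F-PRT is taken to stand for FLASH protons, given at an ultra-high dose rate, and S-PRT for standard protons, given at a conventional one. Strain, dose, library strand and the interval between irradiation and sampling are not in the labels. It is not given in the labels whether a tissue piece held tumour, or whether skin and bone of one number came from one mouse.

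IL-1 alpha, the product of Il1a, is held in epithelial cells and acts as an alarm signal when they are damaged, while IL-1 beta, from Il1b, is made by myeloid cells and is cut to its active form by inflammasomes. Il1rn encodes the antagonist that occupies the same receptor without signalling. IL-18 is also activated by inflammasomes, and IL-33 is a nuclear alarm protein of barrier and stromal cells. TNF and IL-1 signal through NF-kB, whereas IL-6, oncostatin M and LIF share the receptor subunit gp130. CSF1 maintains macrophages and, in bone, drives the formation of osteoclasts. On GRCm38, Il1a (chr2:129299610-129309972) and Il1b (chr2:129364570-129371139) are near neighbours on the minus strand of chromosome 2, and Il1rn lies elsewhere on that chromosome (chr2:24336853-24351494, plus strand). Osm (chr11:4236420-4241026) and Lif (chr11:4257557-4272514) stand side by side on the plus strand of chromosome 11.

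Total expected counts per library, in megacounts, ran from 16.4 to 22.1 in skin and from 10.9 to 17.4 in bone. Keratinocyte markers marked skin and osteoblast markers marked bone. The summed level of 5 osteoblast genes (Bglap, Ibsp, Sp7, Alpl, Dmp1) was 2.19 to 6.21 CPM in skin and 782 to 1897 CPM in bone, where CPM stands for counts relative to library size after TMM scaling. The 5 basal keratinocyte genes summed to 7173 to 29054 CPM in skin and 59.5 to 163 CPM in bone. Skin S-PRT library 4 stood apart, with 5.21 CPM of endothelial markers, against 151 to 160 CPM in the other 3 S-PRT libraries, and with the highest basal keratinocyte sum. Skin Untreated library 1 had the highest differentiated keratinocyte sum of its group, 14600 CPM against 5262 to 6823 CPM. In bone, F-PRT library 2 carried 132 CPM of differentiated keratinocyte markers and F-PRT library 3 had 14856 CPM of skeletal muscle markers. Bone Untreated library 1 was the shallowest and had 1625 CPM of neutrophil markers, against 6066 to 8960 CPM in the other 3 Untreated libraries. Results are therefore also given without these 5 libraries. Other libraries that stood apart were kept, so the 5 are not a full set. Skin S-PRT library 1 had 20091 CPM of skeletal muscle markers, against 526 to 3910 CPM in the rest of its group. Bone Untreated library 2 had 515 CPM of them, against 3757 to 8090 CPM in the rest of its group. A bulk library cannot tell fewer cells of a type from less RNA per cell.

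Untreated skin and bone differed in which cytokine RNAs they held. Skin was richer in Il1a, Il1rn, Il18 and Il33, and bone in Il1b, Osm and Csf1. By level per transcript length (TPM), Il1rn led in untreated skin at 63.5 ± 28.4 TPM (SD, n = 4 for this and the other means), followed by Il18 at 47.3 ± 9.46 TPM, Il33 at 16.3 ± 6.45 TPM and Il1a at 15.3 ± 4.46 TPM. Csf1 was at 7.73 ± 3.21 TPM, Tnf at 3.29 ± 1.39 TPM and Il1b at 2.41 ± 1.38 TPM, with Lif, Il6 and Osm under 1 TPM on average. In untreated bone Csf1 led at 12.1 ± 1.25 TPM, followed by Il1rn at 10.1 ± 5.28 TPM, Il18 at 6.69 ± 2.97 TPM and Tnf at 5.04 ± 2.16 TPM. Il1b was at 4.87 ± 2.17 TPM, Il1a at 2.13 ± 0.555 TPM and Osm at 1.78 ± 0.934 TPM there, with Lif, Il33 and Il6 under 1 TPM on average. Neighbours in these orders mostly overlapped: 7 of 9 neighbouring pairs in skin and 9 of 9 in bone shared part of their range, and only the steps from Il18 to Il33 and from Csf1 to Tnf in skin did not.

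Tested as untreated skin against untreated bone with edgeR, 7 of the 9 cytokines past the filter on low counts passed at an adjusted p under 0.05, in a comparison that called 65.2% of all genes tested, 32.6% higher and 32.6% lower in skin. Il33 was 72.8-fold higher in skin (log2 difference 6.19 ± 0.35 SE, adjusted p = 7.67e-13), with 74.1, 52.6, 63.7 and 49.3 CPM in skin, against 1.63, 0.381, 0.800 and 0.871 CPM in bone. Il18 was 7.58-fold, Il1a 7.45-fold and Il1rn 6.79-fold higher in skin, at adjusted p between 6.40e-10 and 1.37e-07. Osm stood at 0.0782 of its bone level in skin (adjusted p = 2.60e-08). On the log2(TPM + 0.1) scale these differences were 5.19 for Il33 and -2.74 for Osm, and both passed. Csf1 stood at 0.669 of its bone level (adjusted p = 0.0127, but 0.0515 without skin Untreated library 3 and 0.0608 on the TPM scale). Il1b stood at 0.548 of its bone level (adjusted p = 0.0361, lost when any of 6 single libraries was left out, with 0.122 as the highest p). Tnf (log2 difference -0.53, adjusted p = 0.1002) and Lif (0.20, adjusted p = 0.684) did not pass. Tnf passed without the 5 libraries (log2 difference -0.79, adjusted p = 0.00942), where 66.0% of all genes did. Il6 was near the limit of detection in both tissues, with 0 to 20 counts per library, and was not tested.

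**Figure D1:**
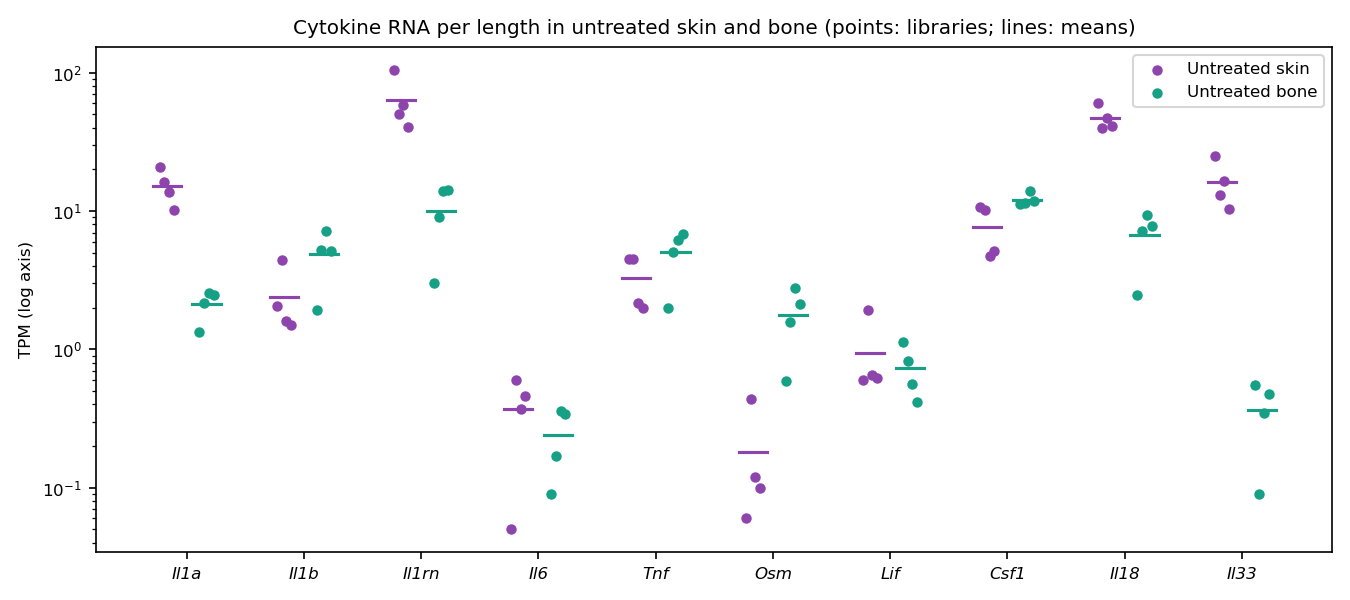
TPM of each cytokine in the 4 untreated skin and 4 untreated bone libraries on a log axis, with points for libraries and lines for means. Skin points lie above bone points for Il1a, Il1rn, Il18 and Il33, and Il6 is under 1 TPM in both tissues.

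The stretch before the start site is shown for the 6 cytokines that passed the test in bone after both beams, the comparison described next. Each line gives the 250 bases upstream of a RefSeq transcript start on GRCm38.p6, on the strand of the gene. Capitals mark matches to an NF-kB motif, to the AP-1 motif TGANTCA and to TATAAA, the TATA box, each searched on both strands.
Csf1: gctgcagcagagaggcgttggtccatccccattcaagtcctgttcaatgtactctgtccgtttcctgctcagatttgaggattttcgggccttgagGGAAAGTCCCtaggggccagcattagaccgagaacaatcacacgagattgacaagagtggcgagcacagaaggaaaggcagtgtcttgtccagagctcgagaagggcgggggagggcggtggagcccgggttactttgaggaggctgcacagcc
Il18: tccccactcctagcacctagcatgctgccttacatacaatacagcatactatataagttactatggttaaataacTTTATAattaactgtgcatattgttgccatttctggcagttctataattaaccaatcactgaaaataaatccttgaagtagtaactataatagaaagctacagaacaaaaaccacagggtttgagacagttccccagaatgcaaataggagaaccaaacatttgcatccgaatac
Il1rn: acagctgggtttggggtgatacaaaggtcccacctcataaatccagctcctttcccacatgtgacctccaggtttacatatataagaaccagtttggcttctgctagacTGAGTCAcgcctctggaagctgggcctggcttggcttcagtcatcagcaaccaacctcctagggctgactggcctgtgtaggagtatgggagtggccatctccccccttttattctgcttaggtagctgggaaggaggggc
Lif: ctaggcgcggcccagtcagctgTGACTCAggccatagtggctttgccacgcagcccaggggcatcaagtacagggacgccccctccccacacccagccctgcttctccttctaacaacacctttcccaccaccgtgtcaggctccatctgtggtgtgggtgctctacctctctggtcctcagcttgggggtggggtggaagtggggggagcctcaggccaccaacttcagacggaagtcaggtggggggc
Il1a: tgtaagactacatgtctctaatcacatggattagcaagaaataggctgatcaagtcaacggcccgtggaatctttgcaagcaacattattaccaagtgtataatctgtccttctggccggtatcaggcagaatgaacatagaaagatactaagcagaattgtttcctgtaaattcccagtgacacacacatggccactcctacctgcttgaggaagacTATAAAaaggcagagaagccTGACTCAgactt
Tnf: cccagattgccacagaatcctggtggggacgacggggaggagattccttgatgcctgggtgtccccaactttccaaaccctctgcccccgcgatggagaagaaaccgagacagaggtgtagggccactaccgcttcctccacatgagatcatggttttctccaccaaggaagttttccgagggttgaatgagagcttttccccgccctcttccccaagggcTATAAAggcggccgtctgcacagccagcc

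The windows lie at chr3:107760470-107760719 (minus strand) for Csf1, chr9:50554450-50554699 (plus) for Il18, chr2:24336610-24336859 (plus) for Il1rn, chr11:4257318-4257567 (plus) for Lif, chr2:129309973-129310222 (minus) for Il1a and chr17:35202008-35202257 (minus) for Tnf. Il1rn has 3 RefSeq start sites and the first is shown (the third window holds an NF-kB match at -51), and the Il18 start in RefSeq lies upstream of the gene start in GENCODE M21 (base 50554827 of chromosome 9). The Csf1 window holds an NF-kB match on the opposite strand, whose first base is at -154, and 4.11% of all 32851 windows hold that motif. AP-1 matches stand at -141 in Il1rn, at -228 in Lif and at -12 in Il1a, and 6.75% of all windows hold one. TATAAA begins at -32 in Il1a and at -29 in Tnf, and in Il18 the letters match only on the opposite strand, at -175. TATAAA occurs in 12.4% of all windows. No motif was shared by all 6 windows. A match in these letters is a description of the sequence. RefSeq windows matched 9 of the 10 cytokines, all but Osm.

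In bone, Il1rn, Il18, Lif and Csf1 rose after both beams, by 1.88-fold to 2.36-fold. Il1a and Tnf fell after both beams and Osm after F-PRT, all relative to the bulk of genes. Il1b, which encodes the main secreted IL-1 agonist, showed no change that passed with edgeR and TMM scaling. Of the 9 cytokines past the filter, 7 passed after F-PRT (4 higher and 3 lower) and 6 after S-PRT (4 higher and 2 lower). All genes tested passed at 32.7% after F-PRT and 28.5% after S-PRT, with 15.5% higher and 17.2% lower after F-PRT and 13.3% higher and 15.2% lower after S-PRT. The median log2 change of the tested cytokines was 1.07 after F-PRT and 0.53 after S-PRT, beside -0.01 in both for all genes tested. Both comparisons use the same 4 Untreated libraries. Without the 5 libraries, 7 cytokines passed after F-PRT, where 23.9% of genes did, and 7 after S-PRT, where 29.9% did. The log2 changes after F-PRT were then 0.83 for Il1rn, 0.90 for Il18, 1.19 for Csf1, -0.89 for Il1a, -1.23 for Tnf and -1.22 for Osm (adjusted p = 0.000122 to 0.0354). After S-PRT they were 0.69 for Il1rn, 0.68 for Il18, 1.23 for Csf1, -0.98 for Il1a, -0.97 for Tnf and -0.91 for Osm (adjusted p = 2.29e-05 to 0.0242).

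The scale matters for the falls. On the authors' TPM scale the median of all genes tested in bone lay 0.69 higher after F-PRT and 0.62 higher after S-PRT (log2), and 11460 of the 11990 genes called after F-PRT were higher, against 2925 of 6161 with TMM scaling and 5064 of 6961 with library size scaling. The share of genes called was 63.6% on TPM and 36.9% with library size scaling after F-PRT, and 58.7% and 32.6% after S-PRT. On the TPM scale, tested with limma, Il1a changed by -0.08 (adjusted p = 0.801), Tnf by -0.05 (0.887) and Osm by 0.07 (0.873) after F-PRT. Relative to the median of all genes those values are -0.77, -0.75 and -0.62. After S-PRT the TPM changes of Il1a and Tnf were -0.27 (adjusted p = 0.395) and -0.03 (0.944). Il1rn, Il18, Lif and Csf1 were higher on both scales after both beams.

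Csf1 had the smallest standard error of the cytokines in bone. It had 102, 131, 97.4 and 132 CPM after F-PRT and 118, 122, 108 and 134 CPM after S-PRT, against 64.6, 48.2, 51.2 and 54.5 CPM in Untreated bone. Every irradiated library lay above every Untreated one, as for 15.0% of all genes after F-PRT and 12.1% after S-PRT. The rise was 2.12-fold after F-PRT (log2 change 1.08 ± 0.13 SE, adjusted p = 3.34e-05) and 2.21-fold after S-PRT (1.14 ± 0.13, adjusted p = 2.72e-05), and it passed in each fit that left out 1 library.

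Il18 had 15.9, 19.8, 18.0 and 16.4 CPM in F-PRT bone and 13.8, 8.77, 15.3 and 17.8 CPM in S-PRT bone, against 3.15, 8.54, 9.20 and 8.31 CPM in Untreated bone. The F-PRT libraries lay above all Untreated libraries, as for 15.0% of all genes, while S-PRT library 2 fell within the Untreated range. The rise was 2.36-fold after F-PRT (log2 change 1.24 ± 0.26 SE, adjusted p = 0.00301) and 1.88-fold after S-PRT (0.91 ± 0.27, adjusted p = 0.0206, but 0.0690 without S-PRT library 4). Bco2 and Tex12, which overlap Il18 on the opposite strand, had at most 25 and 10 counts in any bone library, against 29 to 335 counts for Il18.

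Il1rn had 48.5, 56.7, 53.7 and 59.7 CPM in F-PRT bone and 46.8, 49.2, 50.4 and 50.8 CPM in S-PRT bone, against 11.2, 24.6, 32.7 and 34.4 CPM in Untreated bone. All irradiated libraries were higher than all Untreated ones, as for 15.0% of all genes after F-PRT and 12.1% after S-PRT. Untreated library 1 was the lowest. The rise was 2.11-fold after F-PRT (log2 change 1.08 ± 0.24 SE, adjusted p = 0.00366) and 1.90-fold after S-PRT (0.93 ± 0.24, adjusted p = 0.0101). Il1a moved the other way, with 3.76, 2.83, 4.38 and 3.55 CPM in F-PRT bone and 3.54, 2.07, 4.52 and 3.60 CPM in S-PRT bone, against 5.32, 6.78, 6.67 and 6.97 CPM in Untreated bone. No irradiated library reached the Untreated range, as for 17.0% of genes that were lower after F-PRT and 14.4% after S-PRT. Relative to the bulk of genes Il1a stood at 0.563 of the Untreated level after F-PRT (log2 change -0.83 ± 0.22 SE, adjusted p = 0.0109) and at 0.534 after S-PRT (-0.90 ± 0.22, adjusted p = 0.00786). Its values rest on 29.9 to 104 counts per bone library, and Gm14023 on the opposite strand had 11.2 to 25.3 counts there. Reads of the pair cannot be told apart without strand.

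Il1b had 9.29, 9.50, 9.68 and 7.96 CPM in F-PRT bone and 11.5, 6.36, 6.03 and 8.47 CPM in S-PRT bone, against 3.69, 8.54, 10.9 and 8.84 CPM in Untreated bone. The 3 groups overlapped. Its log2 change was 0.17 (interval at 95% from -0.41 to 0.75) after F-PRT and 0.00 (-0.58 to 0.59) after S-PRT. On the TPM scale it was higher after F-PRT, by 1.05 (limma, adjusted p = 0.0172), where 63.6% of all genes were called. The median of all genes lay 0.69 higher there, and relative to it Il1b changed by 0.36. Within each library the ratio of Il1rn to the sum of Il1a and Il1b in TPM does not depend on scaling between libraries. That ratio, computed after the values were seen, had a median of 2.62 (2.25 to 3.74) in F-PRT bone and 3.10 (2.13 to 3.78) in S-PRT bone, against 1.34 (0.920 to 1.87) in Untreated bone. The antagonist was thus more abundant relative to the agonists in each irradiated bone library than in any Untreated one.

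Il33 was a rare transcript in bone, with 15 to 44 counts in the irradiated libraries and 5 to 15 in the Untreated ones. It had 2.59, 1.65, 2.56 and 0.995 CPM after F-PRT and 1.03, 1.87, 0.905 and 1.39 CPM after S-PRT, against 1.63, 0.381, 0.800 and 0.871 CPM in Untreated bone. The groups overlapped. The log2 change was 1.13 (adjusted p = 0.0540) after F-PRT and 0.53 (adjusted p = 0.389) after S-PRT. The first value passed with DESeq2, voom, library size scaling, TPM and no filter on low counts (adjusted p = 0.0133 to 0.0326), and without F-PRT library 4, S-PRT library 2 or Untreated library 1 (0.0143 to 0.0495). It did not pass without the 5 libraries (1.37, adjusted p = 0.0737).

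Tnf had 5.35, 7.90, 6.69 and 6.53 CPM in F-PRT bone and 7.59, 7.95, 6.15 and 6.83 CPM in S-PRT bone, against 6.40, 13.0, 13.1 and 15.6 CPM in Untreated bone. Untreated library 1 lay within the irradiated range and the other 3 lay above it. Relative to the bulk of genes Tnf stood at 0.546 of the Untreated level after F-PRT (log2 change -0.87 ± 0.22 SE, adjusted p = 0.00853) and at 0.587 after S-PRT (-0.77 ± 0.22, adjusted p = 0.0191). The S-PRT call was lost without S-PRT library 3 or 4 or Untreated library 2 or 4 (adjusted p = 0.0505 to 0.0655) and with library size scaling (0.0670).

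Among the gp130 cytokines, Lif rose in bone after both beams, and Osm fell after F-PRT with TMM scaling, though not on the TPM scale. Osm had 2.71, 3.54, 1.95 and 3.11 CPM in F-PRT bone and 4.68, 2.49, 3.80 and 3.35 CPM in S-PRT bone, against 2.71, 5.79, 7.54 and 6.97 CPM in Untreated bone. Untreated library 1 was again the low one and the groups overlapped through it. Osm stood at 0.486 of the Untreated level after F-PRT (log2 change -1.04 ± 0.30 SE, adjusted p = 0.0168, but 0.0559 without Untreated library 3). After S-PRT its value of -0.70 did not pass (adjusted p = 0.0954), and it passed without Untreated library 1 (-0.89, adjusted p = 0.0108).

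Lif had 4.88, 4.19, 2.25 and 6.53 CPM in F-PRT bone and 3.59, 4.97, 4.40 and 6.51 CPM in S-PRT bone, against 4.01, 1.60, 1.87 and 1.27 CPM in Untreated bone. Untreated library 1 overlapped the irradiated range. The rise was 2.10-fold after F-PRT (log2 change 1.07 ± 0.37 SE, adjusted p = 0.0419) and 2.29-fold after S-PRT (1.20 ± 0.37, adjusted p = 0.0287). Both calls were fragile. The F-PRT call was lost without F-PRT library 1, 2 or 4, S-PRT library 3 or Untreated library 2, 3 or 4 (adjusted p up to 0.131), and the S-PRT call without S-PRT library 4 or Untreated library 2, 3 or 4 (up to 0.0862). Without the 5 libraries both passed, at log2 changes of 1.85 after F-PRT and 1.62 after S-PRT (adjusted p = 0.00103 and 0.000825). Il6 had 2 to 10 counts in every bone library, 0.177 to 0.498 CPM after F-PRT and 0.138 to 0.506 CPM after S-PRT, against 0.217 to 0.667 CPM in Untreated bone, and no difference was detectable at this depth.

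**Figure D2:**
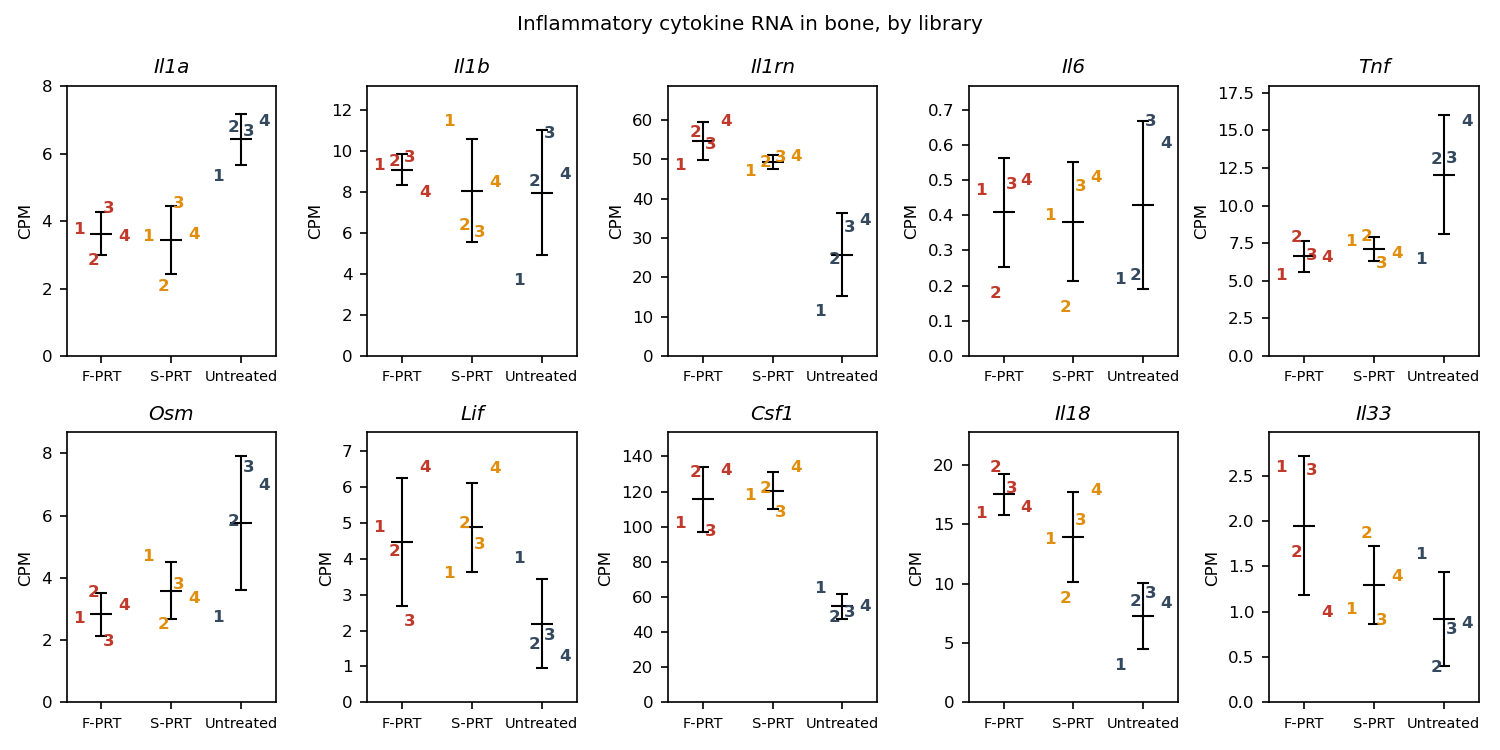
CPM (TMM scaling) of each cytokine in the 12 bone libraries, with replicate numbers as points and the mean with SD as bars. The F-PRT and S-PRT libraries lie above all Untreated libraries for Il1rn and Csf1 and below them for Il1a, and Untreated library 1 is the lowest of its group for Il1a, Il1b, Il1rn, Tnf, Osm and Il18.

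Markers of several cell types moved in bone beside these cytokines. The counts of marker genes stand beside calls for 32.7% of all genes after F-PRT and 28.5% after S-PRT. Of all genes, 15.5% were higher and 17.2% lower after F-PRT, and 13.3% and 15.2% after S-PRT. The 7 neutrophil genes (S100a8, S100a9, Ly6g, Camp, Ltf, Mpo, Elane) all fell, to 432 to 564 CPM in F-PRT bone and 301 to 838 CPM in S-PRT bone, against 1625 to 8960 CPM in Untreated bone. The 4 erythroid genes also all fell, to 4102 to 6704 CPM after F-PRT and 4051 to 7036 CPM after S-PRT, against 12448 to 17602 CPM in Untreated bone, as did the 4 megakaryocyte genes. Of the 6 macrophage and monocyte genes, 5 rose and 1 fell after each beam, with a sum of 1197 to 1414 CPM after F-PRT and 739 to 1252 CPM after S-PRT, against 416 to 1142 CPM in Untreated bone. Of the 5 T and NK cell genes, 4 rose, with sums of 93.4 to 136 CPM after F-PRT and 64.5 to 118 CPM after S-PRT, against 26.4 to 76.6 CPM in Untreated bone. Endothelial sums were 418 to 493 CPM after F-PRT and 341 to 482 CPM after S-PRT, against 230 to 294 CPM in Untreated bone. Adipocyte genes rose (3 of 4 after each beam), with sums of 447 to 607 CPM after F-PRT and 372 to 527 CPM after S-PRT, against 167 to 266 CPM in Untreated bone. Osteoclast genes also rose (3 of 4 after each beam), with sums of 1423 to 3544 CPM after F-PRT and 2397 to 3252 CPM after S-PRT, against 1564 to 2091 CPM in Untreated bone. Osteoblast genes rose in 2 of 5 after F-PRT and 3 of 5 after S-PRT, and fibroblast genes in 3 of 5 and 2 of 5. Endothelial genes rose in 3 of 5 after each beam. The 5 differentiated keratinocyte genes, which mark skin, summed to 0.647, 132, 24.4 and 38.1 CPM in F-PRT bone and 3.59, 1.73, 3.08 and 18.5 CPM in S-PRT bone, against 3.58, 0.838, 1.27 and 1.14 CPM in Untreated bone. The 4 of them tested all rose after F-PRT and 0 passed after S-PRT. Of 4 basal keratinocyte genes tested, 2 rose and 1 fell after F-PRT and 0 rose and 1 fell after S-PRT. F-PRT library 1 had the lowest differentiated keratinocyte sum. Its 48.5 CPM of Il1rn and 15.9 CPM of Il18 were the lowest of the F-PRT group, and above every Untreated library. The part of the keratinocyte markers and of the other shifts in the cytokine values was not tested.

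In skin, Il1a and Tnf were lower after S-PRT, and no cytokine passed after F-PRT with edgeR or DESeq2 when all libraries were used. Of the 8 cytokines past the filter, 2 passed after S-PRT, both lower, where 4.34% of genes passed and 2.52% were lower. After F-PRT 0 of 8 passed (edgeR), where 2.39% of genes did, and 4 of the 8 (Il1a, Il1b, Tnf and Lif) had an unadjusted p under 0.05, beside 14.9% of all genes. DESeq2 also called 0 there. Voom with quality weights called 3, Il1a, Csf1 and Il18, and 13.8% of all genes. The median log2 change of the tested cytokines was -0.25 after F-PRT and -0.14 after S-PRT, beside -0.02 and 0.00 for all genes. Without the 5 libraries, 3 cytokines passed after each beam. These were Il1a (log2 change -0.60, adjusted p = 0.0179), Csf1 (0.42, 0.0428) and Il18 (0.66, 0.0106) after F-PRT, and Il1a (-0.95, 0.00234), Tnf (-1.02, 0.0348) and Csf1 (0.64, 0.00697) after S-PRT. The share of all genes called then was 14.0% and 23.4%. The balance of calls depended on the scale here too: 121 of 150 genes called after F-PRT and 220 of 283 after S-PRT were higher on the TPM scale, against 191 of 455 and 348 of 827 with TMM scaling. These TPM calls were 0.788% and 1.49% of the genes tested.

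Il1a had 28.5, 23.4, 33.0 and 28.5 CPM in F-PRT skin and 21.8, 18.8, 25.5 and 8.14 CPM in S-PRT skin, against 50.2, 50.002, 41.4 and 38.1 CPM in Untreated skin. Every irradiated library lay below every Untreated one, as for 8.14% of genes after F-PRT and 5.37% after S-PRT. Il1a stood at 0.414 of the Untreated level after S-PRT (log2 change -1.27 ± 0.27 SE, adjusted p = 0.0183, but 0.0700 without Untreated library 2). After F-PRT it stood at 0.631 (-0.66 ± 0.26, adjusted p = 0.261), and this value passed when S-PRT library 4, which enters the same fit, was left out (-0.66, adjusted p = 0.0135). The S-PRT change was -1.08 on the TPM scale and did not pass there (adjusted p = 0.255), while the median of all genes lay at 0.26.

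Tnf had 4.05, 6.39, 3.82 and 3.82 CPM in F-PRT skin and 3.30, 4.31, 3.38 and 1.82 CPM in S-PRT skin, against 8.74, 11.2, 5.32 and 6.02 CPM in Untreated skin. The S-PRT libraries lay below the Untreated range, as for 5.37% of all genes, and F-PRT library 2 within it. Tnf stood at 0.410 of the Untreated level after S-PRT (log2 change -1.29 ± 0.31 SE, adjusted p = 0.0366) and at 0.576 after F-PRT (-0.80 ± 0.31, adjusted p = 0.245). The S-PRT call was lost in 7 of the 12 fits that left out 1 library, those without F-PRT library 1, 3 or 4, S-PRT library 1 or 3 or Untreated library 1 or 2 (adjusted p up to 0.138), and on the TPM scale (-0.95, adjusted p = 0.292).

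Il18 had 67.3, 77.5, 93.1 and 85.2 CPM in F-PRT skin and 56.4, 71.6, 77.3 and 18.2 CPM in S-PRT skin, against 54.9, 44.9, 53.5 and 56.5 CPM in Untreated skin. All F-PRT libraries exceeded the Untreated ones, as for 8.02% of genes that were higher, and S-PRT library 4 was far below the rest. The log2 change after F-PRT was 0.62 ± 0.32 SE (adjusted p = 0.399, but 0.0117 without S-PRT library 4), and after S-PRT 0.09 ± 0.32 (adjusted p = 0.926). Csf1 had 38.6 to 45.8 CPM in F-PRT skin and 22.2 to 51.1 CPM in S-PRT skin, against 27.3 to 40.3 CPM in Untreated skin. Its change of 0.32 after each beam did not pass (adjusted p = 0.555 and 0.530), and S-PRT library 4 was the lowest of its group. Lif had 3.94 to 4.73 CPM in F-PRT skin and 3.22 to 5.38 CPM in S-PRT skin, against 0.907 to 4.50 CPM in Untreated skin. Its log2 changes were 0.87 (adjusted p = 0.310) and 0.92 (0.244), the second passing without Untreated library 2 (1.48, adjusted p = 0.0324).

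Il1b was scarce in skin, with 1.73 to 3.28 CPM after F-PRT and 0.996 to 2.82 CPM after S-PRT, against 2.66 to 7.57 CPM in Untreated skin, and its log2 changes of -0.87 and -1.13 did not pass (adjusted p = 0.329 and 0.155). The antisense transcript Il1bos had 10 to 40 counts in skin libraries, where Il1b had 17 to 138, so the split between the pair is uncertain. Il1rn and Il33 were abundant and had small log2 changes, from -0.34 to -0.08, with adjusted p from 0.506 to 0.893. Il1rn had 134 to 176 CPM after F-PRT and 115 to 172 CPM after S-PRT, against 146 to 209 CPM in Untreated skin. Il33 had 41.0 to 53.6 CPM after F-PRT and 39.5 to 81.8 CPM after S-PRT, against 49.3 to 74.1 CPM in Untreated skin. All 3 groups overlapped for both genes. Osm had 2 to 12 counts and Il6 0 to 20 counts per skin library and neither was tested.

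**Figure D3:**
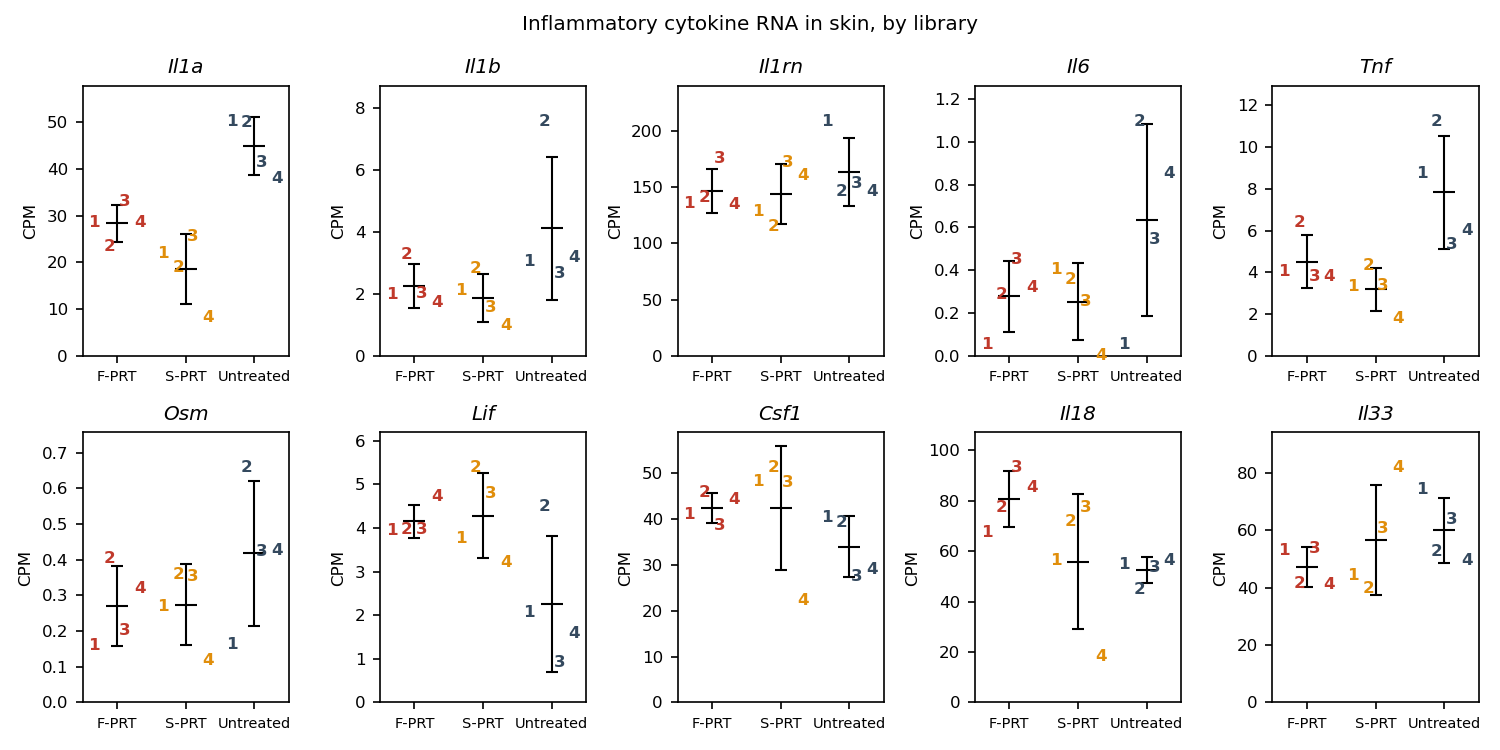
CPM (TMM scaling) of each cytokine in the 12 skin libraries, with replicate numbers as points and the mean with SD as bars. Il1a is lower in all irradiated libraries than in Untreated ones, and S-PRT library 4 is the lowest of its group for Il1a, Il1b, Tnf, Lif, Csf1 and Il18 and the highest for Il33.

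Neutrophil markers in skin were near the floor of detection. Their sum was lower in every irradiated library than in any Untreated one, as was Il1a, and Tnf after S-PRT. The 7 genes summed to 2.73 to 5.18 CPM in F-PRT skin and 3.05 to 4.09 CPM in S-PRT skin, against 8.83 to 35.2 CPM in Untreated skin, with Ly6g and Mpo at 0 in all F-PRT libraries, Elane at 0 in all S-PRT libraries and Ly6g and Ltf at 0 in all Untreated libraries. Untreated library 2 had the highest neutrophil sum and the highest Il1b and Tnf. Il1a did not follow the sum in each library: F-PRT library 2 had the highest sum of its group and the lowest Il1a, 23.4 CPM. Macrophage and monocyte markers summed to 258 to 364 CPM after F-PRT and 59.9 to 376 CPM after S-PRT, against 85.6 to 259 CPM in Untreated skin. Of the neutrophil genes 2 were abundant enough to test and both fell after each beam. Calls covered 2.39% of all genes after F-PRT and 4.34% after S-PRT. Basal keratinocyte sums were 7427 to 9798 CPM after F-PRT and 7817 to 29054 CPM after S-PRT, against 7173 to 14318 CPM in Untreated skin. Other marker sums shifted too. After F-PRT, S-PRT and in Untreated skin, endothelial sums were 145 to 164, 5.21 to 160 and 45.3 to 129 CPM. Fibroblast sums were 1141 to 1702, 143 to 1843 and 263 to 1238 CPM, and T and NK sums 17.0 to 21.9, 1.93 to 20.8 and 14.8 to 35.8 CPM. No endothelial, fibroblast or T and NK cell gene passed after either beam. The part of these markers in the cytokine values was not tested.

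The beams were compared directly as F-PRT against S-PRT within a tissue. No cytokine passed in skin (0 of 8) or in bone (0 of 9) with edgeR, DESeq2 or voom. Over all genes edgeR called 0 in skin and 1, or 0.00531%, in bone. In skin 522 genes had an unadjusted p under 0.05, among them Il1a as 1 of 8 cytokines, and DESeq2 called 2 genes there. In bone DESeq2 called 21 genes, and 0 of the 9 cytokines had an unadjusted p under 0.05. The largest cytokine differences in skin were in Il1a, 1.52-fold higher after F-PRT than after S-PRT (interval at 95% from 1.02 to 2.27, adjusted p = 0.999), Il18 at 1.45-fold (0.893 to 2.34) and Tnf at 1.41-fold (0.881 to 2.24). All of these involve S-PRT library 4, the lowest of its group for each. In bone the largest were Il33 at 1.51-fold (0.840 to 2.71), Osm at 0.788-fold (0.503 to 1.23) and Il18 at 1.26-fold (0.862 to 1.84). The narrowest interval was that of Csf1 in bone, 0.960-fold with bounds of 0.798 and 1.16. These unadjusted intervals give the range of differences compatible with 4 libraries a group. They do not show that the beams act alike.

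**Figure D4:**
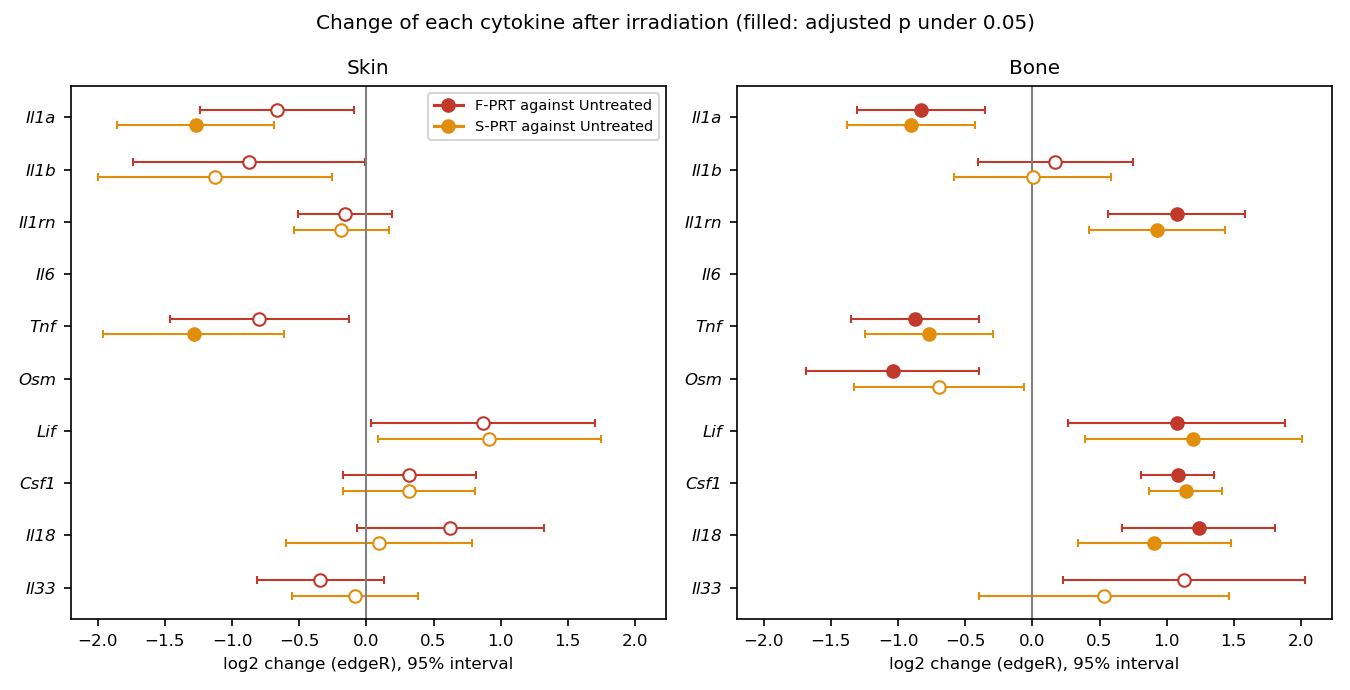
Log2 change (TMM scaling) of each cytokine after F-PRT and S-PRT relative to Untreated in skin and bone, with intervals at 95% for single genes and filled points for adjusted p under 0.05. In bone Il1rn, Lif, Csf1 and Il18 lie above 0 after both beams and Il1a and Tnf below 0, and in skin only Il1a and Tnf after S-PRT are filled.

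With edgeR and no replicate block, the effect of irradiation differed between skin and bone for Il1rn after both beams. Its change was smaller in skin by 1.26 on the log2 scale after F-PRT (log2 difference -1.26 ± 0.31 SE, adjusted p = 0.0108) and by 1.14 after S-PRT (-1.14 ± 0.31, adjusted p = 0.0214). Neither difference passed with the replicate number as a block (edgeR, adjusted p = 0.0597 and 0.0880). Il33 also differed after F-PRT (-1.51 ± 0.44, adjusted p = 0.0312), a call that was lost without any of 8 single libraries (adjusted p up to 0.0842) and on the TPM scale (0.0840). These were 2 of 9 cytokines after F-PRT, in a test that called 10.7% of all genes, and 1 of 9 after S-PRT, where 9.45% were called. Csf1, called in bone and not in skin, did not pass the test of the difference (-0.79, adjusted p = 0.0712 after F-PRT and -0.84, 0.0583 after S-PRT). It passed without the 5 libraries (-0.79, 0.00830 and -0.60, 0.0227), where 12.4% and 17.0% of genes did. Il1a and Tnf had differences between tissues of 0.15 and 0.05 after F-PRT and of -0.38 and -0.54 after S-PRT, none of which passed (adjusted p = 0.474 to 0.962).

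The receptors and targets of these cytokines were followed in 8 lists. The list counts in bone stand beside calls for 32.7% of all genes after F-PRT (15.5% higher, 17.2% lower) and 28.5% after S-PRT (13.3% higher, 15.2% lower). Among the 9 IL-1 family receptors and decoys, 0 rose and 2 fell in bone after each beam, a share of the list below that of all genes called. With the 5 libraries left out, 3 fell after S-PRT, where 29.9% of all genes were called. Il18rap, the accessory chain of the IL-18 receptor, had 20.7 ± 2.12 CPM after F-PRT and 20.6 ± 1.31 CPM after S-PRT, against 70.3 ± 15.8 CPM in Untreated bone (adjusted p = 2.37e-06 and 2.88e-06). Il1r2, the decoy receptor for IL-1, stood at 0.372 of the Untreated level after F-PRT and 0.371 after S-PRT (adjusted p = 0.00703 and 0.00793), but at log2 changes of -0.51 and -0.74 that did not pass on the TPM scale. Of the other IL-1 family ligands only Il36g was abundant enough to test in bone. It stood at 0.201 of the Untreated level after F-PRT and 0.157 after S-PRT (adjusted p = 0.000122 and 5.67e-05).

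Of the 11 other gp130 ligands and receptors tested in bone, 4 rose after each beam and 0 fell. The oncostatin M receptor gene Osmr had 46.5 ± 8.68 CPM after F-PRT and 42.5 ± 1.96 CPM after S-PRT, against 25.9 ± 6.46 CPM in Untreated bone (adjusted p = 0.00139 and 0.00466). Il6st, which encodes gp130, rose 1.45-fold after F-PRT (adjusted p = 0.00411) and the LIF receptor gene Lifr rose 1.81-fold after S-PRT (adjusted p = 0.00924). Cntfr, the receptor of ciliary neurotrophic factor, rose 3.17-fold after F-PRT and 3.66-fold after S-PRT (adjusted p = 0.00679 and 0.00370). The list's median log2 change was 0.53 after F-PRT and 0.36 after S-PRT. Without the 5 libraries the receptor genes Cntfr, Lifr and Osmr rose after both beams.

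Of the 8 other TNF ligands and receptors in bone, 5 rose and 1 fell after F-PRT and 3 rose and 1 fell after S-PRT. Without the 5 libraries 2 rose and 1 fell after F-PRT, where 23.9% of all genes were called. Tnfsf13b, the B cell survival factor BAFF, stood at 0.208 of the Untreated level after F-PRT and 0.227 after S-PRT (adjusted p = 1.18e-05 and 2.27e-05). Tnfsf10, which encodes the death ligand TRAIL, rose 1.80-fold after F-PRT and 1.48-fold after S-PRT (adjusted p = 0.000496 and 0.00858). Tnfsf11, the osteoclast factor RANKL, rose 2.00-fold after F-PRT (adjusted p = 0.000720), and Lta, encoding lymphotoxin alpha, rose 3.71-fold after S-PRT (adjusted p = 0.00425).

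The CSF1 receptor rose with its ligand in bone. Csf1r had 292 ± 49.1 CPM after F-PRT and 269 ± 39.8 CPM after S-PRT, against 144 ± 17.5 CPM in Untreated bone (adjusted p = 0.000156 and 0.000466). Csf1r is also a macrophage gene. The receptors of the granulocyte factors were lower relative to the bulk of genes. Csf3r stood at 0.555 of the Untreated level after F-PRT and 0.517 after S-PRT (adjusted p = 0.00105 and 0.000557), and Csf2ra at 0.528 and 0.521 (4.72e-05 and 4.81e-05), and on the TPM scale neither passed. Of the 5 genes tested in this list, 2 rose and 2 fell after F-PRT and 2 rose and 3 fell after S-PRT.

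Of 12 inflammasome and shedding genes in bone, 2 rose and 3 fell after F-PRT and 2 rose and 5 fell after S-PRT. Leaving out the 5 libraries, 2 rose and 1 fell after F-PRT, where 23.9% of all genes were called. Adam17, the protease that sheds TNF from the membrane, rose 1.45-fold after F-PRT and 1.32-fold after S-PRT (adjusted p = 0.000800 and 0.00633). The sensor gene Nlrp1b rose 1.97-fold and 1.88-fold (adjusted p = 0.00420 and 0.00730). Nlrp3, the sensor best known for IL-1 beta release, stood at 0.663 of the Untreated level after F-PRT and 0.618 after S-PRT (adjusted p = 0.00660 and 0.00288), with TPM changes of -0.01 and -0.24 that did not pass. Of 16 signalling genes, the NF-kB subunits Nfkb2 and Relb rose after both beams and 0 fell, a smaller share than that of all genes called. Nfkb2 rose 1.64-fold after each beam and Relb 1.68-fold after F-PRT and 1.64-fold after S-PRT (adjusted p = 0.000842 to 0.00925).

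Of 18 feedback and target genes of these pathways tested in bone, 8 rose and 2 fell after F-PRT and 6 rose and 3 fell after S-PRT, with median log2 changes of 0.36 and 0.25. When the 5 libraries were left out, 5 of 19 rose and 2 fell after F-PRT, and 5 rose and 3 fell after S-PRT. The share of all genes called was then 23.9% and 29.9%. Icam1, an adhesion molecule, had 42.8 ± 2.77 CPM after F-PRT and 38.4 ± 4.28 CPM after S-PRT, against 16.7 ± 1.75 CPM in Untreated bone (adjusted p = 1.41e-06 and 4.04e-06). Ccl2, the monocyte chemokine, had 4.51 ± 0.236 CPM after F-PRT and 2.83 ± 0.524 CPM after S-PRT, against 0.582 ± 0.266 CPM in Untreated bone (adjusted p = 7.39e-06 and 7.66e-05). Lcn2, also a product of maturing neutrophils, stood at 0.0266 of the Untreated level after F-PRT and 0.0348 after S-PRT (adjusted p = 2.01e-05 and 3.92e-05).

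In skin 0 of the 20 targets rose, 4 fell after F-PRT and 6 fell after S-PRT, with median log2 changes of -0.48 and -0.45. Of all genes tested there, 2.39% were called after F-PRT and 4.34% after S-PRT. Without the 5 libraries 2 rose and 7 fell after F-PRT, and 3 rose and 8 fell after S-PRT. The share of all genes called was then 14.0% and 23.4%. Nfkbia, the inhibitor that NF-kB induces, had 72.6 ± 3.83 CPM after F-PRT and 67.3 ± 4.91 CPM after S-PRT, against 117 ± 31.1 CPM in Untreated skin (adjusted p = 0.0346 and 0.0109). The F-PRT call was lost without any single F-PRT library, without S-PRT library 1 or 2 and without Untreated library 2 (up to 0.127). Bcl3 and Nfkbiz, both nuclear partners of NF-kB, stood at 0.497 and 0.617 of the Untreated level after F-PRT (adjusted p = 0.0233 and 0.0405), and each lost its call without any single F-PRT library or without Untreated library 2 or 3, and Nfkbiz also without S-PRT library 2 or 3 or Untreated library 1 or 4. After S-PRT, Tnfaip3, which encodes the NF-kB inhibitor A20, stood at 0.637 (adjusted p = 0.0159, but 0.0513 without S-PRT library 1 and 0.05004 without S-PRT library 2) and Lcn2 at 0.158 (0.00939). Traf2, an adaptor of the TNF receptor, was the signalling gene called in skin after S-PRT, at 0.700 of the Untreated level (adjusted p = 0.0489), and its call was lost in 11 of the 12 fits that left out 1 library. None of these skin calls passed on the TPM scale. In the 7 lists without an edgeR call after F-PRT in skin, 8 of 63 genes had an unadjusted p under 0.05 and DESeq2 called 3. Of all genes tested, 14.9% had an unadjusted p under 0.05 after F-PRT. In the 6 such lists after S-PRT, 5 of 47 had an unadjusted p under 0.05 and DESeq2 called 2. Shares of all genes are not given here for the unadjusted p after S-PRT or for DESeq2. Those counts therefore carry no comparison with all genes. Set as F-PRT against S-PRT, edgeR and DESeq2 called 0 of the 83 list genes in skin and 0 of the 80 in bone, of which 4 and 2 had an unadjusted p under 0.05.

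Across the 12 libraries of a tissue some cytokines followed each other. In bone Il1rn and Il18 had a Pearson r of 0.93 between log2 CPM values, Lif and Csf1 0.84, Tnf and Osm 0.84, and Il1a and Csf1 -0.88. In skin the highest pair was Il1b with Tnf at 0.93. These values describe 12 libraries that share 3 treatments and differ in depth and cell content. The genes most like Csf1 in bone were Luzp1 (r = 0.993) and the macrophage and endothelial receptor gene Stab1 (0.989), and those most like Il18 were Epsti1 (0.990) and the macrophage receptor gene Mrc1 (0.989). BC029722 (0.979) and Trf, which encodes transferrin (0.975), were most like Il1rn, and Nyap2 (0.973) and the fibroblast protease gene Fap (0.972) most like Lif. For those that fell, the most like genes were Ranbp9 (0.938) and Treml2 (0.919) for Il1a, Fam222b (0.956) and Pet100 (0.955) for Tnf, and Kcnab2 (0.967) and Arrdc1 (0.958) for Osm. In skin Lcn2 (0.969) and Slc44a3 (0.969) were most like Tnf, and Rdh1 (0.968) and Emb (0.965) most like Il1a.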

How the data were processed

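RNA-seq of 24 libraries, 4 in each of 6 groups, was deposited as one table of genes per library. Per the file headers, the authors' tables hold expected counts, TPM and FPKM from RSEM. The tools named in the submitters' processing notes are cutadapt, STAR, RSEM and FastQC, with the build GRCm38. Tool versions, the annotation release and the counting strand are not given in these sources. FPKM values, also deposited, were not used. Gene names came from GENCODE M21 (55230 of 55471 identifiers matched, 241 did not).

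Expected counts were rounded and tested with edgeR 4.0.16 in R 4.3.3 (TMM scaling, filterByExpr, quasi-likelihood test), in one fit per tissue and one over both tissues for comparisons between tissues. P-values were adjusted by Benjamini-Hochberg over all genes tested, with a threshold of 0.05. The intervals given for single genes are at 95% and unadjusted. Alternatives used DESeq2 1.42.0, voom with quality weights in limma 3.58.1, RLE scaling, a replicate block, a fit with no filter, each library left out in turn and 5 libraries left out together. Library size scaling and limma on log2(TPM + 0.1) were added after seeing the data. The test was also run on simulated counts with the same spread for every gene and no deviant library. That run cannot show how the test behaves with libraries such as skin S-PRT library 4.

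The cytokines, the 8 pathway lists and the cell type lists were chosen with earlier results of these data known. All 10 cytokines are named. From each pathway list, up to 3 genes past the test per comparison within a tissue are named, by smallest p, and for similar patterns the genes of highest Pearson r with a mean of at least 2 CPM. Replicates rest on the labels' word, so p-values measure the spread between these libraries. Different libraries of a group differed by more than sampling noise in all 36 pairs compared.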

Additional observations from a re-analysis of the deposited data

Results flagged for a closer look

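In 8 of the 60 groups of 4 libraries 1 library lay far from the other 3 in CPM, where chance gives about 1 in 20. In skin these were Untreated library 2 for Il1b (7.57 against 2.66 to 3.16 CPM), F-PRT library 3 for Il1rn (175.9 against 134.4 to 140.9 CPM), Untreated library 1 for Il1rn (208.8 against 146.2 to 153.1 CPM), F-PRT library 2 for Tnf (6.39 against 3.82 to 4.05 CPM), F-PRT library 4 for Lif (4.73 against 3.94 to 3.97 CPM) and S-PRT library 4 for Csf1 (22.2 against 47.9 to 51.1 CPM). In bone they were F-PRT library 2 for Il6 (0.177 against 0.470 to 0.498 CPM, a difference of a few counts) and Untreated library 1 for Il18 (3.15 against 8.31 to 9.20 CPM).

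The effect of irradiation differed between skin and bone by a test of the difference (edgeR, all genes) in 3 cases. They were 2 of 9 cytokines after F-PRT, where 10.7% of all genes passed, and 1 of 9 after S-PRT, where 9.45% did. The log2 difference, skin minus bone, was -1.26 for Il1rn after F-PRT, -1.51 for Il33 after F-PRT and -1.14 for Il1rn after S-PRT. With 4 libraries in each group, Il1rn changed by -0.16 and -0.19 in skin, against 1.08 and 0.93 in bone. With the replicate number as a block, the Il1rn difference passed after neither beam (edgeR, adjusted p = 0.0597 and 0.0880). The Il33 difference passed in 16 of 24 edgeR fits that left out 1 library (adjusted p up to 0.0842). It did not pass on the TPM scale (limma, adjusted p = 0.0840).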

How the results depend on the processing

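Of the alternatives run for single cytokines, 1788 kept the side of the threshold, 54 lost a call, 41 gained one and 1 turned the direction of a call. The last was Osm in bone after F-PRT, at 0.0701 on the TPM scale (adjusted p = 0.873). The 1788 include changes of sign where neither fit passed. Il33 in skin after S-PRT, for example, changed by -0.08 with edgeR and by 0.18 on the TPM scale. RLE scaling moved no count by over 1.5 times. In skin after F-PRT the genes called were 940 with DESeq2, 2623 with voom, 150 on TPM and 2704 without the 5 libraries, and cytokines were 3 with voom and 3 without those libraries. In skin after S-PRT they were 1487 with DESeq2, 3102 with voom, 283 on TPM and 4509 without the 5 libraries, and cytokines were 4 with voom, 1 with library size scaling and 0 on TPM. DESeq2 called 2 genes between the beams in skin, and in bone 21, with 11 without the filter and 0 on TPM. In bone on TPM 11990 genes were called after F-PRT and 11061 after S-PRT. For the effect in skin against bone, voom called 4203 genes after F-PRT and 3460 after S-PRT, and 3655 were called after S-PRT without the 5 libraries. Cytokines called there were 1 after F-PRT on TPM, and 2 after S-PRT with each of DESeq2, voom, library size scaling and the 5 libraries left out. The cause of these shifts was not tested.

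Whether the replicate numbers pair the libraries is not in the labels, and correlations between libraries cannot settle it. Same-numbered libraries of one tissue deviated from their group means with r from -0.34 to 0.37 (10 of 24 over 0.1), and skin with bone from -0.29 to 0.19. With the replicate number as a block, 299 genes were called in skin after F-PRT and 0 between the beams in bone. For the effect in skin against bone the block left 1236 genes and 1 cytokine after F-PRT, and 1090 genes and 0 cytokines after S-PRT, where Il1rn had adjusted p of 0.0597 and 0.0880. Under the block Lif in bone after F-PRT had an adjusted p of 0.0684.

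Leaving out 1 library at a time gave 216 to 1477 genes and 0 to 2 cytokines in skin after F-PRT, with the highest counts without S-PRT library 4. In skin after S-PRT it gave 452 to 2270 genes (lowest without Untreated library 2, highest without S-PRT library 4) and 1 to 3 cytokines. Between the beams it gave 0 to 1 genes and 0 to 0 cytokines in each tissue. In bone it gave 4803 to 6727 genes and 5 to 8 cytokines after F-PRT, and 4054 to 6158 genes and 3 to 7 cytokines after S-PRT, with 3 without S-PRT library 4. Untreated skin against bone gave 13006 to 14151 genes and 5 to 8 cytokines. The effect in skin against bone gave 1636 to 3021 genes and 1 to 3 cytokines after F-PRT, and 1520 to 2633 genes and 1 to 2 cytokines after S-PRT. Depth limits Il6 in both tissues, Osm in skin and Il33 in bone.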

Other observations

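In skin the ratio of Il1rn to the sum of Il1a and Il1b in TPM, computed after the values were seen, had a median of 4.33 (3.98 to 4.52) after F-PRT and 5.31 (4.47 to 17.3) after S-PRT, against 3.64 (2.43 to 4.57) in Untreated skin. The S-PRT maximum came from library 4. Fitted without the filter on low counts (edgeR), Il6 had log2 changes in skin of -1.16 after F-PRT and -1.25 after S-PRT (adjusted p = 0.665 and 0.597), and in bone of -0.06 and -0.13 (0.991 and 0.978).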
